A study of Sus scrofa with 8 samples.

Results

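The 186 array probes described here had a higher level in the lungs of Tibetan pigs kept at high altitude (TH) than in every other lung measured. They were chosen by their measured values: among the 43603 probes of an Agilent porcine array, a member had to be well above background on both TH arrays, and the lower TH array had to exceed the highest of the 6 other arrays by over 2 on the log2 scale, which is over 4-fold. That difference is called the gap below. Of the 27400 probes well above background on both TH arrays, 186 (0.679%) met the rule, and probes of 3 further genes were left out of the set in advance. Because TH against the other groups chose the members, their TH levels are given as a description with no test.

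The study crossed breed with altitude. TH were Tibetan pigs raised at their native altitude of 3500 m. DL were Duroc pigs, a lowland commercial breed, raised at 40 m. TL were Tibetan pigs moved from the highland to 40 m at 1 month of age, and DH were Duroc pigs moved from the lowland to 3500 m at 1 month. All animals were sampled at 6 months, each group had 2 arrays with 1 pig per array, and all of the animals chosen were female. TL and DH were the moved groups, so relocation cannot be told apart from a response to altitude that depends on breed.

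Lung is mostly epithelium, endothelium, immune cells and matrix, with airway-associated lymphoid tissue that holds B lymphocytes. In lymphoid follicles, B cells bearing surface receptors switch and mutate their antibody genes, and plasma cells then secrete antibody in bulk. Acute phase proteins are made chiefly by the liver in inflammation, although epithelium and macrophages make some of them locally. Erythropoietin and the enzymes of glycolysis are the genes best known to answer low oxygen, through the hypoxia-inducible factors.

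Values are the deposited log2 levels, quantile normalized, so that every array has the same distribution. Probes well above background numbered 26464 to 31722 per array, and none was saturated. Arrays of one group correlated at Pearson r of 0.985 to 0.996 and arrays of TH, DH and DL at 0.971 to 0.976, whereas pairs with a TL array reached 0.944 to 0.960, so TL stood apart. TH shared a slide with DL, and DH shared the other slide with TL. Thus TH minus DL lies within a slide, but TH and DL differ in both breed and altitude, which cannot be told apart there. In TH minus TL and in TH minus DH slide and group cannot be told apart. Both moved groups lie on the same slide, so relocation cannot be told apart from slide either. All 6 tested genes of the alveolar type II cell, a cell particular to lung, were well above background in all 4 groups. These are whole-tissue levels, so more cells of a type and more RNA per cell cannot be told apart.

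The gap of the 186 members ran from 2.00 to 6.84 with a median of 2.60, and 57 members exceeded 3 and 20 exceeded 4. The TH replicates of a member differed by a median of 0.05 and at most 2.00. Within the slide shared with DL, 111 members were well above background on at least 1 DL array, and their mean TH level exceeded their mean DL level by 2.11 to 7.53 with a median of 2.96. The median difference was 3.51 against TL for the 129 members detected there and 2.91 against DH for the 113 detected there. The other 75, 57 and 73 members have only a bound against DL, TL and DH. The highest other array belonged to DL for 83 members, to DH for 70 and to TL for 33. A total of 100 members were well above background on all 8 arrays, and 54 were so on no array outside TH. Those 54 have only a bound for their increase over any group. Under another background setting, with local background subtracted and an offset of 50 added before the log, 48 probes met the rule, and all 48 were among the 186.

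**Figure D1:**
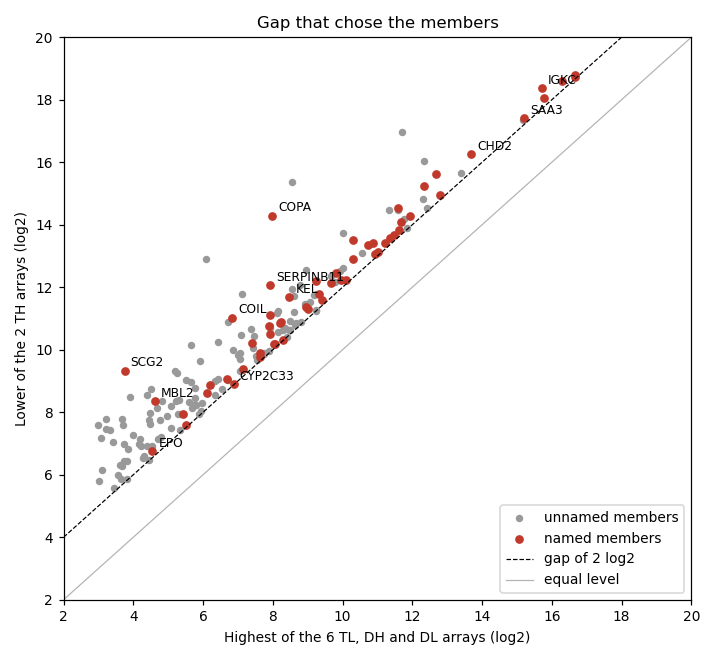
Lower of the 2 TH arrays (y axis, log2) against the highest of the 6 other arrays (x axis, log2) for the 186 members. Red points are named members and grey points unnamed ones. All lie above the dashed line because the gap of 2 chose them, and COPA, at a gap of 6.31, stands farthest above it among the named genes.

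The same rule turned to each of the other groups found 1316 probes for TL, 20 for DH and 32 for DL. The TH set is therefore larger than either Duroc set and much smaller than the TL set. Without the TL arrays, 255 probes met the rule for TH against DH and DL. At the edge of the rule, the last members were a CYP2C33 probe, a STMN2 probe and an unnamed probe with gaps of 2.01, 2.01 and 2.00. Just outside it lay probes of FGG and C8B, a fibrinogen chain and a complement chain made by the liver, and an unnamed probe, each with a gap of 1.99. The FGG probe has the same target identifier as an unnamed member with a gap of 2.16, so that member may also read FGG.

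A gene symbol was available for 57 members, 23 through a RefSeq accession and 34 through the gene names listed with the study, and these covered 45 genes. The other 129 members had no symbol in either source. Their targets are given as expressed-sequence, cluster, transcript or other sequence identifiers, among them RefSeq accessions that matched no symbol here. Of the 57 named members 46 were well above background on all 8 arrays, against 54 of the 129 unnamed ones. Of the 45 genes 42 are given by role below, each with the deposited level on every array where its gap was among the largest 25.

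Immunoglobulin genes gave 7 of the 57 named members, for 4 genes.  IGKC, the constant region of the kappa light chain, read 18.37 and 18.39 in TH, 15.60 and 15.59 in TL, 14.80 and 14.87 in DH, and 15.67 and 15.72 in DL. LOC396781, an IgG heavy chain, was hit by 4 member probes with gaps of 2.06 to 2.29, and its probe with the largest gap read 18.67 and 18.59 in TH, 16.06 and 16.16 in TL, 16.28 and 16.24 in DH, and 16.27 and 16.30 in DL. Levels outside TH were close to each other for 3 of these 4 probes, while the probe with a gap of 2.27 read 18.06 and 18.05 in TH, 15.60 and 15.65 in TL, 14.40 and 14.37 in DH, and 15.78 and 15.78 in DL. That probe showed the lowest level in DH and similar levels in TL and DL.

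LOC100037924, annotated as a rearranged heavy-chain variable region, read 12.20 and 12.20 in TH, 5.95 and 5.88 in TL, 7.52 and 7.85 in DH, and 9.15 and 9.23 in DL. Unlike the constant-region probes, this one was spread widely outside TH, with DL well over DH and DH well over TL. LOC100736878, named as a kappa variable region, read 14.09 and 14.08 in TH, 9.85 and 9.85 in TL, 10.36 and 10.27 in DH, and 11.65 and 11.68 in DL. Its probe has the same target transcript as the IGKC probe, so which region of the kappa chain it reads was not tested. The order DL, DH, TL was shared by the LOC100037924 and LOC100736878 probes. Immunoglobulin genes form large families of near-identical members, so a probe may read several of them, and variable-region probes follow whichever rearrangements are abundant in a pig.

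B lymphocyte genes gave 6 members for 5 genes. VPREB3, a protein of immature and germinal center B cells, read 15.25 and 15.31 in TH, 12.03 and 12.08 in TL, 12.27 and 12.33 in DH, and 11.51 and 11.50 in DL. CD79A, the signaling chain of the B cell receptor, read 12.46 and 12.51 in TH, 8.25 and 8.32 in TL, 9.58 and 9.55 in DH, and 9.79 and 9.80 in DL. Duroc pigs of both altitudes were close to each other for CD79A and TL was lowest, whereas VPREB3 was lowest in DL. CR2, the complement receptor of B cells and follicular dendritic cells, had 2 member probes. One read 10.50 and 10.55 in TH, 7.78 and 7.77 in TL, 7.90 and 7.91 in DH, and 7.31 and 7.42 in DL. The other read 12.13 and 12.16 in TH, 9.68 and 9.68 in TL, 9.62 and 9.62 in DH, and 9.24 and 9.25 in DL. Both CR2 probes showed TL and DH nearly level with each other and DL below them. All 5 genes were well above background on all 8 arrays, so their transcripts were detected in every lung.

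Plasma and acute phase proteins gave 11 members for 8 genes. MBL2, a mannose-binding lectin that starts the complement cascade, read 8.35 and 8.38 in TH, 3.64 and 3.97 in TL, 3.86 and 4.62 in DH, and 3.66 and 3.54 in DL. It was well above background on the TH arrays only, which gives at least 16.6-fold over TL, at least 6.66-fold over DH and at least 6.37-fold over DL. The MBL2 gap of 3.72 was 0.63 with local background subtracted and an offset of 50, where it did not meet the rule. SAA3, a serum amyloid A made in tissues as well as the liver, had 2 member probes. The one with the larger gap read 17.41 and 17.41 in TH, 14.34 and 14.37 in TL, 15.20 and 15.16 in DH, and 14.07 and 14.05 in DL. LOC733603, annotated as serum amyloid A2, read 13.05 and 13.08 in TH, 8.22 and 8.33 in TL, 10.88 and 10.93 in DH, and 9.96 and 9.97 in DL. For these 3 probes of the amyloid A family the second-highest group was DH, and for LOC733603 the TL level was far below both Duroc groups.

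SERPINA3-2, a relative of alpha-1-antichymotrypsin, had 3 member probes with gaps of 2.50, 2.47 and 2.12, and the first of them read 8.65 and 8.61 in TH, 6.10 and 6.10 in TL, 5.09 and 5.15 in DH, and 5.91 and 5.80 in DL. LOC100156325, annotated as a serpin A3-6-like gene, read 12.26 and 12.23 in TH, 9.75 and 9.70 in TL, 8.55 and 8.55 in DH, and 9.96 and 9.90 in DL. ORM1, the orosomucoid acute phase glycoprotein, read 13.47 and 13.43 in TH, 11.22 and 11.17 in TL, 10.59 and 10.68 in DH, and 10.78 and 10.80 in DL. Here the next group differed from gene to gene, with TL next for ORM1 and the first SERPINA3-2 probe and DL next for LOC100156325. These serpins are near copies of each other, so their probes may share targets. APOC3, an inhibitor of triglyceride clearance made in liver and intestine, read 14.37 and 14.29 in TH, 11.93 and 11.94 in TL, 11.84 and 11.83 in DH, and 11.32 and 11.28 in DL. ITIH1, a hyaluronan-binding plasma protein, read 11.36 and 11.36 in TH, 8.96 and 8.88 in TL, 8.79 and 8.89 in DH, and 8.25 and 8.30 in DL. Both had similar levels in TL and DH and their lowest level in DL.

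Genes of innate defense and of T lymphocyte regulation gave 5 members for 5 genes. PGLYRP1, a peptidoglycan-binding protein stored in neutrophil granules, read 14.54 and 14.53 in TH, 10.89 and 10.89 in TL, 11.60 and 11.59 in DH, and 11.15 and 11.15 in DL. C14H10orf99, a small peptide secreted by epithelia, read 10.76 and 10.76 in TH, 7.89 and 7.88 in TL, 3.68 and 3.31 in DH, and 3.41 and 3.39 in DL. It was well above background in both Tibetan groups and in neither Duroc group. Its level in TH was 7.36-fold over TL, at least 35.2-fold over DH and at least 33.7-fold over DL. CD5L, a scavenger-receptor protein secreted by macrophages, read 14.95 and 15.10 in TH, 10.38 and 10.28 in TL, 12.78 and 12.71 in DH, and 10.74 and 10.71 in DL. CLEC5A, a lectin receptor of myeloid cells, read 9.91 and 9.88 in TH, 7.20 and 7.23 in TL, 7.63 and 7.55 in DH, and 7.42 and 7.52 in DL. LAG3, an inhibitory receptor of activated T cells, read 7.60 and 7.67 in TH, 4.59 and 4.70 in TL, 5.12 and 5.42 in DH, and 4.35 and 5.51 in DL. CD5L was next highest in DH, by a wide margin over TL and DL, while CLEC5A was nearly level across the other groups. The LAG3 replicates of DL differed by over 1, and neither of them was well above background.

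Serine synthesis was represented by its first enzymes. PHGDH, which commits a glycolytic intermediate to serine, had 2 member probes, and the one with the larger gap read 13.59 and 13.58 in TH, 10.22 and 10.29 in TL, 11.35 and 11.28 in DH, and 11.34 and 11.37 in DL. PSAT1, which catalyzes the following transamination, also had 2, and the probe with the larger gap read 11.12 and 11.12 in TH, 7.5 and 7.45 in TL, 7.60 and 7.56 in DH, and 7.88 and 7.93 in DL. Its other member probe read 13.42 and 13.42 in TH, 10.62 and 10.54 in TL, 10.68 and 10.78 in DH, and 10.87 and 10.88 in DL. All 4 probes showed TH as the highest group and TL as the lowest, and no further probe of either gene carried a name.

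Metabolic enzymes of the cytochrome P450 family and NNMT gave 4 members. CYP2E1, which oxidizes ethanol and small solvents, read 13.36 and 13.37 in TH, 10.28 and 10.24 in TL, 10.74 and 10.72 in DH, and 9.55 and 9.51 in DL. CYP4A21, a bile acid hydroxylase of pig liver, read 7.96 and 7.93 in TH, 4.27 and 4.46 in TL, 5.42 and 5.36 in DH, and 4.43 and 3.79 in DL. NNMT, which methylates nicotinamide, read 10.20 and 10.21 in TH, 5.98 and 5.85 in TL, 7.24 and 7.35 in DH, and 7.39 and 7.28 in DL. CYP4A21 was not well above background in either Duroc group, while CYP2E1 was so on all 8 arrays. CYP2C33, a drug-metabolizing enzyme, read 8.90 and 8.99 in TH, 6.78 and 6.88 in TL, 6.15 and 6.47 in DH, and 5.31 and 5.32 in DL, with DL the lowest.

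Airway and epithelial genes gave 3 members. SERPINB11, an epithelial serpin, read 12.07 and 12.06 in TH, 7.70 and 7.76 in TL, 7.07 and 7.06 in DH, and 7.73 and 7.93 in DL. This is 20.2-fold over TL, 32.1-fold over DH and 18.9-fold over DL. CLCA1, a secreted protein of goblet cells that goes with mucus production, read 12.23 and 12.27 in TH, 10.11 and 10.09 in TL, 8.14 and 8.15 in DH, and 8.46 and 8.42 in DL. GABRP, an epithelial subunit of the GABA receptor, read 9.41 and 9.37 in TH, 7.12 and 7.15 in TL, 6.12 and 5.93 in DH, and 5.64 and 5.54 in DL. CLCA1 and GABRP were next highest in TL, so both Tibetan groups lay above both Duroc groups, whereas SERPINB11 was level in TL and DL and lowest in DH.

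Genes linked with red cells and oxygen supply gave 3 members. EPO, the hormone of red cell production, read 6.93 and 6.75 in TH, 3.19 and 3.04 in TL, 4.55 and 3.16 in DH, and 4.29 and 2.95 in DL. It was well above background only in TH, which gives at least 5.80-fold over TL, at least 2.32-fold over DH and at least 2.22-fold over DL. Its gap of 2.20 was 1.27 with normexp on the median signals and 0.24 with local background subtracted and an offset of 50, so EPO did not meet the rule under either setting. The Duroc replicates of EPO differed by over 1 within each group. CA1, the carbonic anhydrase of red cells, read 10.90 and 10.93 in TH, 8.24 and 8.23 in TL, 6.94 and 6.89 in DH, and 7.51 and 7.43 in DL. KEL, which carries the Kell blood group, read 11.73 and 11.68 in TH, 8.42 and 8.47 in TL, 8.20 and 8.24 in DH, and 7.38 and 7.40 in DL. TL was the next highest group for both CA1 and KEL.

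Genes of nerve cells and secretory granules gave 5 members for 3 genes. SCG2, a granin of neuroendocrine granules, read 9.32 and 9.35 in TH, 3.30 and 3.33 in TL, 3.11 and 3.06 in DH, and 3.75 and 3.08 in DL. It was well above background on no array outside TH, which gives at least 32.7-fold over TL, at least 13.1-fold over DH and at least 12.5-fold over DL. Its gap of 5.57 was 1.26 with local background subtracted and an offset of 50. STMN2, a tubulin-binding protein of growing neurons, had 3 member probes with gaps of 2.01 to 2.18, and the one with the largest gap read 11.67 and 11.60 in TH, 8.60 and 8.60 in TL, 9.30 and 9.42 in DH, and 8.21 and 8.18 in DL. FABP7, a fatty acid binding protein of glia, read 8.87 and 9.01 in TH, 5.40 and 5.48 in TL, 6.11 and 6.19 in DH, and 5.31 and 5.22 in DL. For STMN2 and FABP7 the second-highest group was DH.

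The remaining 9 members covered 8 genes with no shared role. COPA, a subunit of the COPI coat that carries cargo from the Golgi back to the endoplasmic reticulum, read 14.36 and 14.28 in TH, 6.14 and 6.13 in TL, 6.15 and 5.94 in DH, and 7.97 and 7.89 in DL. This was the largest gap of any named gene, at 6.31, with levels 292-fold over TL, 310-fold over DH and 84.0-fold over DL. COIL, the scaffold protein of Cajal bodies where splicing particles mature, read 11.18 and 11.03 in TH, 5.66 and 5.72 in TL, 6.65 and 6.52 in DH, and 6.80 and 6.83 in DL. SEPT11, a cytoskeletal septin, read 15.63 and 15.61 in TH, 12.40 and 12.42 in TL, 12.68 and 12.64 in DH, and 12.28 and 12.31 in DL. CHD2, a chromatin remodeler, read 16.39 and 16.26 in TH, 12.58 and 12.56 in TL, 13.30 and 13.21 in DH, and 13.69 and 13.63 in DL. These 4 genes have further probes that gave other values, described after this paragraph. RGS5, a signaling regulator of pericytes, read 12.90 and 12.95 in TH, 8.52 and 8.49 in TL, 10.29 and 10.27 in DH, and 8.34 and 8.56 in DL. MC1R, the melanocortin receptor known for coat color, read 11.02 and 10.87 in TH, 6.69 and 6.66 in TL, 8.12 and 8.0 in DH, and 8.20 and 8.16 in DL. RGS5 was next highest in DH, and MC1R was lowest in TL and level in the Duroc groups. ELL3, a transcription elongation factor, had 2 member probes with gaps of 2.39 and 2.12.

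**Figure D2:**
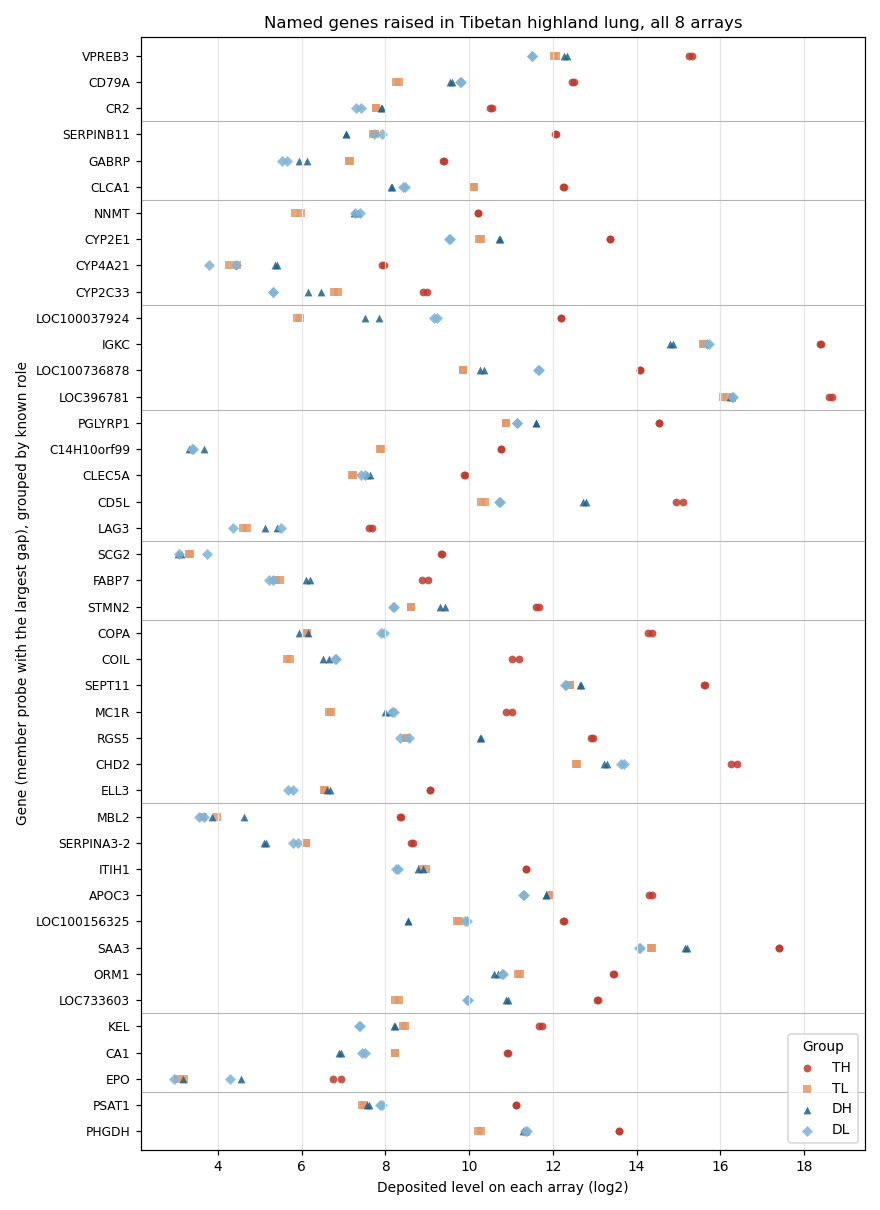
Deposited log2 level (x axis) on each of the 8 arrays for 42 named genes (y axis, grouped by role with grey lines between roles). Each gene shows its member probe with the largest gap, with 2 points per group for the 2 arrays. The red TH points lie to the right of all others for every gene because the rule requires it, and the order of the other groups changes from gene to gene.

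Agreement between probes could be examined for 13 of the 45 genes, which had 24 further tested probes that did not meet the rule. Another 25 genes had a single named probe. The further probes were compared as TH minus the mean of TL, DH and DL with limma, adjusted over the 34401 probes that at least 1 array detected well above background, and called at an adjusted p below 0.0001. Of the 24 probes, 10 (41.7%) were higher in TH, against 9.93% of all tested probes, and 5 (20.8%) were lower, against 10.1%. Both TH arrays exceeded all 6 others for 12 of the 24, against 18.1% of all tested probes. The 24 probes all carry a symbol, and the shares over named probes alone are not given here. These probes were read on the same 8 arrays as the members, so they check the probe and not the animals, and they carry the same slide layout. Without the TL arrays 5 of the 24 were called, and with any single array left out 3 to 9 were.

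In 7 genes every further tested probe was called higher in TH, and one of them was COPA, described with the discordant genes below. The further CLCA1 probe read 16.32 and 16.31 in TH, 14.49 and 14.53 in TL, 12.02 and 12.08 in DH, and 12.33 and 12.34 in DL. Its TH minus others difference was 3.35 ± 0.03 (SE, adjusted p = 1.15e-06). The further GABRP probe differed by 2.62 ± 0.04 (SE, adjusted p = 2.20e-06), the SAA3 probe by 2.55 ± 0.03 (SE, adjusted p = 1.23e-06), and the LAG3 probe by 2.35 ± 0.03 (SE, adjusted p = 1.51e-06). The LAG3 probe was well above background on all 8 arrays, unlike the member, and read 13.74 and 13.69 in TH, 11.04 and 11.07 in TL, 11.87 and 11.85 in DH, and 11.20 and 11.16 in DL. APOC3 differed by 1.86 ± 0.04 (SE, adjusted p = 5.47e-06).

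The IgG heavy chain gene LOC396781 had 4 further tested probes, of which 3 were called higher. They read 19.22 to 19.44 in TH, and the one that differed most did so by 1.82 ± 0.04 (SE, adjusted p = 5.53e-06). The one without a call read 18.98 and 19.07 in TH, 18.82 and 19.02 in TL, 18.46 and 18.43 in DH, and 18.82 and 18.71 in DL, and it overlapped between TH and TL. A further STMN2 probe was not called although its mean difference was 2.38 ± 0.19 (SE, adjusted p = 2.46e-04). One of the 2 tested further CYP2C33 probes read 7.22 and 7.41 in TH, 5.37 and 5.55 in TL, 5.07 and 5.51 in DH, and 4.92 and 4.89 in DL. Its TH arrays lay above all others without a call (adjusted p = 1.11e-04), and neither DL array was well above background. The other CYP2C33 probe read 5.73 and 5.12 in TH and 4.45 and 5.82 in DL, so TH did not exceed DL. It was not called either, at 0.98 ± 0.53 (SE, adjusted p = 0.157).

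In 4 other genes no further probe shared the pattern of the member. The second COPA probe read 10.55 and 10.57 in TH, 9.29 and 9.28 in TL, 10.52 and 10.52 in DH, and 10.20 and 10.18 in DL. It was called, with a difference of 0.56 ± 0.02 (SE, adjusted p = 1.55e-05), but TH and DH were nearly equal and the size was far from that of the member. All 6 further COIL probes had at least 1 other array above TH, and 1 of them was called lower, at -0.72 ± 0.02 (SE, adjusted p = 1.61e-05). The further SEPT11 probe read 13.95 and 13.96 in TH, 15.20 and 15.15 in TL, 14.90 and 14.89 in DH, and 14.94 and 14.92 in DL, which put TH lowest, at -1.04 ± 0.02 (SE, adjusted p = 5.11e-06). All 3 further CHD2 probes were called lower, with TL highest on each. One of the 3 was well above background in TL only, and another read 10.93 and 11.11 in TH, 13.52 and 13.57 in TL, 11.50 and 11.47 in DH, and 10.69 and 10.69 in DL. The names of all probes of these 4 genes come from the gene names listed with the study and not from a RefSeq accession, and among named genes well above background on all 8 arrays the COPA and COIL member probes had the largest gaps.

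**Figure D3:**
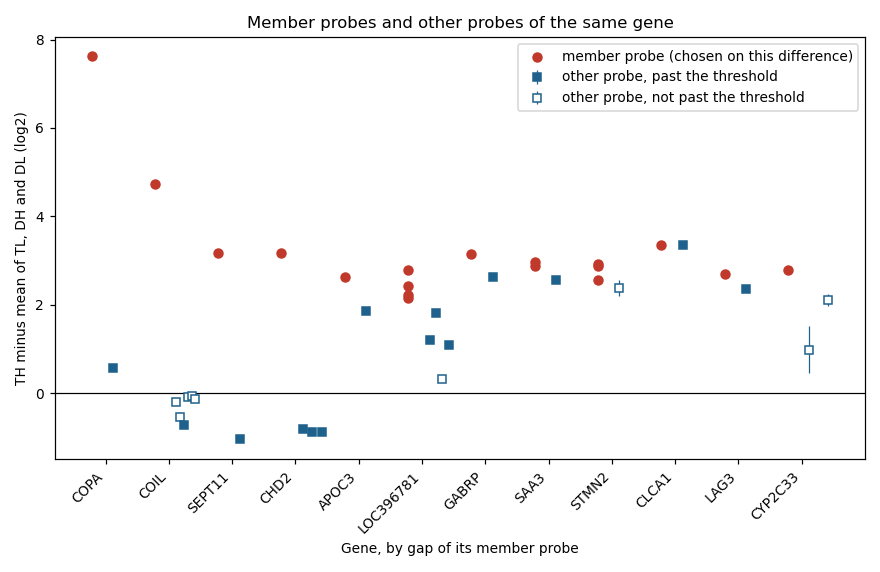
TH minus the mean of TL, DH and DL (y axis, log2) for the member probes (red circles, chosen on this difference) and the further tested probes (blue squares, bars are SE, filled where past the threshold) of 12 genes (x axis). Further probes of APOC3, GABRP, SAA3, STMN2, CLCA1 and LAG3 lie above 1, while those of COIL, SEPT11 and CHD2 lie below 0.

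Comparisons that leave TH out ask whether the members also vary with altitude in Duroc pigs or with breed in the lowland. They are not fully independent of the rule, which used the highest of the TL, DH and DL arrays, and the limma fit shares its estimate of the spread with the TH arrays. In DH minus DL, 17 of the 186 members (9.1%) were higher at altitude, against 5.83% of all tested probes, and 10 (5.4%) were lower, against 4.12%. The median difference of the members was -0.03 and that of all tested probes -0.01. DH and DL lie on different slides, so altitude and slide cannot be told apart here. With any single array left out, no member passed the threshold in this contrast by limma, while 70 to 79 members had an adjusted p below 0.01 and 106 to 117 an unadjusted p below 0.05. With all arrays these counts were 85 and 109. Calls at the threshold were lost over the whole array too. With all arrays 3423 of all tested probes were called, and without both TL arrays, a setting chosen afterwards, 0 were.

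Among the named members, 14 of 57 (24.6%) were higher in DH than in DL, against 5.83% of all tested probes, and 5 (8.8%) were lower, against 4.12%. These 57 probes cover 45 genes, and 46 of them were well above background on all 8 arrays. The shares over probes that are named or that bright are not given here, so naming and brightness were not separated. Of the 129 unnamed members, which were more often dim, 3 (2.3%) were higher and 5 (3.9%) lower. The calls of the members, like nearly all calls of this contrast over the array, were lost with any single array left out. CD5L was higher by 2.02 ± 0.07 (SE, adjusted p = 2.87e-05) and RGS5 by 1.83 ± 0.08 (SE, adjusted p = 4.80e-05). CYP2E1 was higher by 1.20 ± 0.03 (SE, adjusted p = 1.64e-05), and both SAA3 member probes and LOC733603 were higher too, by 0.94 to 1.12. Thus the amyloid A genes were also higher in DH than in DL, at a level below that of TH. Among those that were lower was COPA, at -1.88 ± 0.08 (SE, adjusted p = 4.72e-05). Of the 7 immunoglobulin probes 3 were lower in DH and none higher, against the same 4.12% and 5.83%, with IGKC at -0.86 ± 0.03 (SE, adjusted p = 4.36e-05).

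In TL minus DL, the breed comparison in the lowland, 17 members (9.1%) were higher in TL, against 16.0% of all tested probes, and 37 (19.9%) were lower, against 21.5%. The median difference was -0.27 over the members and -0.21 over all tested probes. C14H10orf99 was higher in TL, at least 4.58-fold because neither DL array was well above background (adjusted p = 3.29e-06), and so was GABRP, at least 2.72-fold for the same reason (adjusted p = 2.15e-05). CLCA1 was higher in TL by 1.66 ± 0.03 (SE, adjusted p = 8.63e-07). The variable-region probe LOC100037924 was lower in TL, at -3.28 ± 0.11 (SE, adjusted p = 6.59e-06), as were CD79A, at -1.51 ± 0.04 (SE, adjusted p = 2.36e-06), and PHGDH, at -1.10 ± 0.04 (SE, adjusted p = 6.76e-06). With any single array left out, 20 to 43 members passed in place of 54. Breed, relocation and slide are shared by this contrast and cannot be told apart in it.

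TL minus DH lies within a slide, but TL and DH differ in both breed and altitude, which cannot be told apart here. Here 14 members (7.5%) were higher in TL, against 15.1% of all tested probes, and 35 (18.8%) were lower, against 18.8%. LOC733603 was lower in TL, at -2.63 ± 0.04 (SE, adjusted p = 1.35e-06), as was CD5L, at -2.42 ± 0.07 (SE, adjusted p = 3.81e-06). CLCA1 was higher by 1.96 ± 0.03 (SE, adjusted p = 1.14e-06), and C14H10orf99, well above background on neither DH array, was higher by at least 4.79-fold (adjusted p = 4.10e-06). With any single array left out, 15 to 33 members passed in place of 49. TL minus DL and TL minus DH share the TL arrays, and DH minus DL shares its arrays with both. A total of 54 of the members were not well above background on any array outside TH, and such a probe has little room to pass any of these 3 comparisons.

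**Figure D4:**
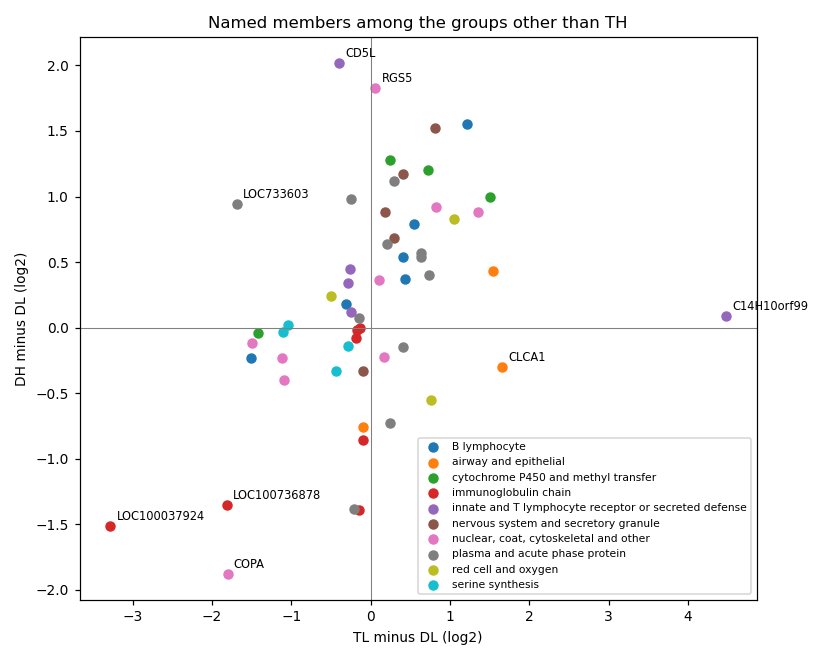
DH minus DL (y axis, log2) against TL minus DL (x axis, log2) for the 57 named members, colored by role. The axes share the DL arrays. CD5L lies highest at 2.02, and LOC100037924 lies farthest to the left at -3.28. Of the 57 named members, 10 were well above background on neither DL array, so their places are not exact sizes. C14H10orf99, at the right, is one of them and was not well above background in DH either.

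Gene lists place the named members among the probes of their programs, and the genes named from them were chosen after their values were seen. Further probes of member genes, such as those of CLCA1 and COPA, stay in the counts. The acute phase list, for example, had 28 tested genes, 7 with a member probe and 23 with another probe. Of each list, only tested probes that are not members are counted, in TH minus the mean of TL, DH and DL. They are set against 9.93% higher and 10.1% lower over all tested probes. A list can hold only probes with a symbol, 5678 of the 43603, and the share over named probes alone is not given here. Many symbols were listed with the study's results on these same arrays, and whether named probes differ more often was not tested. In the acute phase and hepatocyte plasma protein list, put together after the values were seen, 16 of 31 probes (51.6%) were higher in TH and 1 was lower, with a median of 0.79. Fibrinogen chains were higher, FGG by 2.44 ± 0.05 (SE, adjusted p = 5.43e-06) and FGB by 1.93 ± 0.03 (SE, adjusted p = 2.30e-06). Transthyretin TTR, a liver carrier protein, was higher by 2.14 ± 0.02 (SE, adjusted p = 1.41e-06), SERPINA1 by 1.81 ± 0.03 (SE, adjusted p = 2.81e-06) and APOH by 1.94 ± 0.03 (SE, adjusted p = 2.19e-06). Transferrin TF was lower, at -1.23 ± 0.02 (SE, adjusted p = 4.00e-06), and for the haptoglobin gene HP neither of its 2 probes passed. In 18 of the 31 probes both TH arrays exceeded all others.

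The 5 non-member probes of the B and plasma cell list included 4 that were higher in TH and none that were lower. They read only 2 of its 14 genes, MS4A1 and XBP1. MS4A1, the CD20 antigen of B cells, read 14.56 and 14.54 in TH, 12.31 and 12.27 in TL, 12.62 and 12.64 in DH, and 12.69 and 12.73 in DL, higher by 2.01 ± 0.02 (SE, adjusted p = 1.78e-06). XBP1, the factor plasma cells need for secretion, was higher by 0.40 ± 0.02 (SE, adjusted p = 6.05e-05). In the B cell follicle and germinal center list, also put together afterwards, 12 of 22 probes (54.5%) were higher and none was lower, with a median of 0.48. Lymphotoxin LTA was higher by 1.47 ± 0.03 (SE, adjusted p = 4.46e-06), PRDM1, which directs B cells into plasma cells, by 1.5 ± 0.03 (SE, adjusted p = 3.70e-06), and the chemokine CCL19 by 1.25 ± 0.03 (SE, adjusted p = 4.98e-06). CD74 and CCR7 did not pass.

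Of the 2 non-member probes of the neutrophil list, both were higher, LTF by 2.75 ± 0.04 (SE, adjusted p = 2.24e-06) and MMP9 by 1.42 ± 0.02 (SE, adjusted p = 2.93e-06). Only 3 of the 16 genes of that list had a tested probe. LTF and the member PGLYRP1 also belong to the secretory airway list, so they do not single out neutrophils. In the T and natural killer cell list 8 of 16 probes (50%) were higher and 1, for GZMB, was lower, and in the interferon-stimulated list 21 of 28 (75%) were higher and none was lower, with IRF7 at 1.41 ± 0.02 (SE, adjusted p = 3.62e-06). The macrophage list went the other way, with 5 of 9 probes (55.6%) lower, for CD163, MRC1, CHIT1 and C1QA, and none higher. The erythroid list had 3 non-member probes, all higher, with KLF1 at 1.36 ± 0.06 (SE, adjusted p = 3.60e-05), and HBB and AHSP read higher in TL than in TH.

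The secretory airway and mucosal defense list had 10 of 17 probes (58.8%) higher and 2 lower. BPIFA1, an airway surface protein, was higher by 2.82 ± 0.03 (SE, adjusted p = 1.38e-06) but read 13.78 and 13.79 in TH, 14.95 and 14.92 in TL, 9.89 and 9.81 in DH, and 8.08 and 8.12 in DL, so TL exceeded TH. Lysozyme LYZ was lower, at -2.83 ± 0.02 (SE, adjusted p = 1.15e-06), and so was 1 of the 3 KLF5 probes. In the list of serine, glycine and one-carbon enzymes, put together afterwards, 5 of 9 non-member probes (55.6%) were higher and none lower, and ASNS, the asparagine synthetase, was higher by 1.35 ± 0.06 (SE, adjusted p = 3.35e-05). In the neuroendocrine and neuronal list, likewise, none of 11 non-member probes was higher or lower by limma at this threshold, while 8 had an unadjusted p below 0.05. CHGB, a granin like SCG2, read 3.64 and 3.78 in TH, 3.28 and 4.66 in TL, 6.22 and 6.24 in DH, and 7.60 and 7.65 in DL.

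The hypoxia target list, to which EPO belongs, had 3 of 25 non-member probes (12%) higher and 2 lower, while both TH arrays exceeded all 6 others for 8 of the 25, against 18.1% of all tested probes. PDK1, which limits pyruvate entry into mitochondria, was higher on 1 of its 2 probes, by 1.07 ± 0.03 (SE, adjusted p = 9.82e-06), and HMOX1, the heme oxygenase, was lower, at -1.42 ± 0.02 (SE, adjusted p = 1.94e-06). The other calls were KDM3A and 1 of the 4 P4HA1 probes, both higher, and 1 of the 3 MXI1 probes, lower, and none of the 3 VEGFA probes was called. The COPI coat list had 1 of 5 non-member probes higher, the second COPA probe, and the Cajal body and snRNP list had none of 15 higher and 1 lower, a COIL probe. The pyrimidine nucleotide list had 3 of 7 probes higher, for DCTD, CMPK2 and DCK, and 2 lower, for ENTPD1 and the other DCK probe, so the 2 DCK probes opposed each other.

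Other lists gave 7 of 14 adipocyte probes higher, for SCD, ADIPOQ and LIPE, and 1 lower, for CIDEC. Proliferation probes were higher in 8 of 15 cases and lower in none. Skeletal muscle probes were higher in 5 of 20 cases, for ACTA1, TNNC2, CKM and MYH2, and cartilage probes in 2 of 6, for ACAN and MATN1, with none lower in either list. Xenobiotic metabolism probes were split, with 6 of 20 higher, UGT1A6 the most, and 6 lower, CYP1A1 the most. Heat shock and chaperone probes were lower in 8 of 19 cases and higher in none. Alveolar type II probes were higher in 1 of 9 cases, for CTSH, and lower in 2, for SLC34A2, and alveolar type I probes were lower in 2 of 7, for HOPX and CLIC5. Endothelial probes were higher in 1 of 18 cases, for SOX17, and lower in 5, for TEK, CDH5, PECAM1 and VWF. Smooth muscle probes were higher in 2 of 14 cases, for TAGLN and MYLK, and lower in 3, all of CALD1. The ciliated, basal and mesothelial lists had 1 tested probe each, with no call. A probe could be called higher in this contrast while TH lay level with DH or TL. Both TH arrays exceeded all 6 others, which 18.1% of all tested probes showed, for 20 of the 28 interferon-stimulated probes, 12 of the 22 follicle probes, 6 of the 16 T and natural killer cell probes, 6 of the 15 proliferation probes, 5 of the 17 secretory airway probes and all 5 B and plasma cell probes. Those last 5 probes read MS4A1 and XBP1 only. The parts that any of these cell types had in the levels of the members were not tested.

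**Figure D5:**
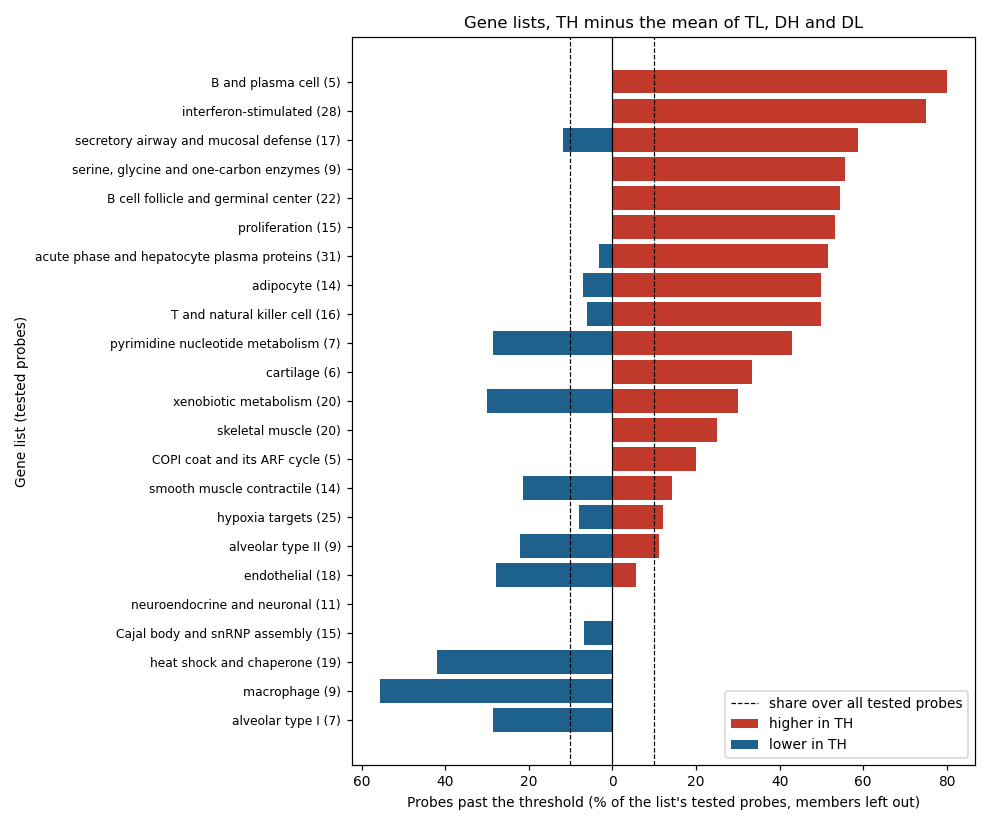
Share of each list's tested non-member probes (x axis, %) that were higher (red, to the right) or lower (blue, to the left) in TH than the mean of TL, DH and DL. Lists with at least 5 such probes are shown, their number stands after the name, and dashed lines mark the shares over all tested probes, 9.93% and 10.1%. The acute phase, B cell follicle, serine and one-carbon, and neuroendocrine lists were put together after the values were seen. Further probes of member genes are counted.

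The 129 unnamed members had a median gap of 2.69, and 16 of them exceeded a gap of 4, against 4 of the 57 named members. The largest gaps of all were found for the unnamed probes A_72_P162601, at 6.84, and A_72_P272854, at 6.82. The first read 12.96 and 12.91 in TH and 5.36 to 6.07 elsewhere. Of the unnamed members 51 were well above background on no array outside TH, against 3 of the named members, which were SCG2, MBL2 and EPO.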

How the data were processed

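Total RNA of 8 pig lungs was labeled with Cy3 and hybridized to Agilent porcine arrays, 1 pig per array, by the authors. The scanner files hold spot intensities that the authors extracted with Agilent Feature Extraction, for which the sources used here give different versions. The deposited log2 values were made by the authors with RMA per their methods. All 8 columns had the same distribution, and each ranked its probes as the background-subtracted processed intensities did, at a Spearman rho of 0.999996 or more. These log2 values were used as deposited, without a floor. A probe was taken as well above background when all its spots carried that flag. Names came from RefSeq accessions (2683 probes) and from gene names listed with the study (3655 probes). Both sources named 660 probes, with the same symbol for 98.3%. In all 5678 probes received 1 of 3958 symbols.

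The members, gene lists and tests were chosen with earlier results of these data known, and 4 of the 28 gene lists were put together after the members had been seen. Groups were compared by limma 3.58.1 in R 4.3.3 (lmFit and eBayes on group means) over the 34401 probes detected on at least 1 array. Benjamini-Hochberg adjustment was used and a call was made at an adjusted p below 0.0001, the threshold of the study. The code was tested on simulated data. Named members are all those with 1 symbol, given on every array for the 25 genes with the largest gap. Of the 45 genes 3 are counted but not reported here by name. A bound written "at least" sets the mean level of the brighter group against the mean, over the dim group's arrays, of the lowest level among probes well above background or of the probe's own level where higher. The spread within a group is that of 2 animals, and their number limits the precision. Same-numbered arrays did not deviate together, with correlations of -0.04 to 0.09. Alternatives covered background correction, normalization, filters, thresholds and left-out arrays. No probe sequence was used here, and coordinates are not given because the files name no genome build.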

Additional observations from a re-analysis of the deposited data

How the results depend on the processing

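The member count of 186 was 187 with processed signals scaled to the 75th percentile, 145 with normexp on the median signals and 186 without outlier spots, but 48 with local background subtracted and an offset of 50, which compresses dim probes by construction. A gap over 1 gave 570 probes, a gap over 3 gave 57, and the rule against the DL arrays of the same slide alone, chosen after seeing the data, gave 452. Leaving out 1 array gave 188 to 379, with 325 and 379 without the first and second TH array. The largest-gap probes of 42, 40, 20 and 45 of the 45 genes stayed over 2 with 75th percentile scaling, normexp, normexp with the offset and no outlier spots. EPO, CYP4A21, LAG3 and CYP2C33 were among those lost with normexp. SCG2, MBL2, FABP7 and the first SERPINA3-2 probe were among those lost with the offset. The 27 members called in DH minus DL became 12 with normexp, 7 without moderation and 0 with the replicate block or, chosen afterwards, without both TL arrays, while 79 and 78 members had an adjusted p below 0.01 there by limma and 58.6% and 57.5% of all 186 an unadjusted p below 0.05. All single left-out arrays gave 0. At adjusted p below 0.01 and 0.05 the count was 85 and 105. Over all tested probes the calls at 0.0001 also fell, from 3423 to 0 with the replicate block and without both TL arrays. For TL minus DL, 54 became 33 without moderation, 112 and 129 at the looser thresholds and 20 to 43 with an array left out, lowest without either TL array and at 25 and 26 without a DL array. For TL minus DH, 49 became 31 without moderation, 30 with the replicate block, 104 and 122 at the looser thresholds and 15 to 33 with an array left out, where each TL, DH or TH array moved it by over 1.5 times. The 15 called further probes became 8 with the replicate block, 5 without both TL arrays and 3 to 9 with an array left out. The numbers of the arrays did not pair them, so the replicate block is only a setting here. The cause of these changes was not tested. The other alternatives kept each count within 1.5 times its value.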

Other observations

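Members were found side by side in the numbering of the array's probes, which was noticed after the values were seen and was not tested. Of the 17 probes numbered from A_72_P185961 to A_72_P186171, 10 were members, none of them named, with gaps of 2.47 to 3.98 and mean TH levels of 5.84 to 12.64. Of the 10 probes numbered from A_72_P186416 to A_72_P186546, 9 were members, with gaps of 2.18 to 4.57 and mean TH levels of 7.60 to 18.63, and the single named one was a probe of the IgG heavy chain gene LOC396781. Probe numbers do not give positions in the genome, and the targets of these unnamed probes were not matched to a gene here.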
